A study of Mus musculus with 18 samples.

Results

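Of the 2519 BMAL1 peaks called in mouse heart, 1140 (45.3%) overlapped no liver or kidney peak by even 1 bp and had their centre more than 1 kb from every end of an annotated gene. These are heart-only peaks away from gene boundaries. They made up 69.6% of the 1637 heart-only peaks (exact 95% interval 67.3 to 71.9%), and the 3 tissue lists together held 11366 peaks. The peaks were measured by chromatin immunoprecipitation and sequencing in wild type C57BL/6 mice aged 3 to 6 months, kept in 12 h of light and 12 h of dark and sampled 6 h after lights on, the 3 tissues coming from the same 3 mice. Each tissue had 3 ChIP and 3 input libraries, and the authors pooled all of them into 1 peak list. No value was therefore given per animal, the depth is unknown, and every interval and test below takes peaks as its units. For heart input, the source label says kidney while the title and the tissue label say heart; no input value was used here, and how this would bear on the heart list was not tested.

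BMAL1 and its partner CLOCK are transcription factors of the basic helix-loop-helix PAS family that form the activating arm of the circadian clock. The pair binds the E-box, with CACGTG as its canonical form, at clock genes and at many output genes, and reaches promoters as well as sites inside and between genes. In cardiac muscle the clock is known for daily rhythms in fuel use, ion channels and contractile function. Sites that lie far from gene ends can act as enhancers, but a peak list alone does not show which gene, if any, a site controls.

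Although every one of these peaks lay away from the outer ends of genes, some lay at a start inside a gene. RefSeq start windows of GRCm38.p6 run from 250 bases before to 50 bases after a transcription start. They overlapped 30 of the 1092 heart-only peaks away from boundaries on chromosomes with such windows (2.75%, 1.86 to 3.90%). Many genes had no window, and a peak at such a gene counted as not at a start, so the share can be too low. Of these 30 windows, 27 belonged to protein-coding genes and 3 to long noncoding RNA genes. The letters that follow are the stretches of 6 such peaks that a start window covers, in the direction of the gene. They are shown because they include the 3 peaks with a canonical E-box in the covered letters and the peaks at heart and muscle genes. Capitals mark the canonical E-box CACGTG, a related form written CATGTG, or another related form written CACGCG. The form written CACGTT was searched as well and stood in none of the 30. All were searched on both strands, and none of the marked places overlaps another.
Vapa, chr17:65613506-65613661, minus strand: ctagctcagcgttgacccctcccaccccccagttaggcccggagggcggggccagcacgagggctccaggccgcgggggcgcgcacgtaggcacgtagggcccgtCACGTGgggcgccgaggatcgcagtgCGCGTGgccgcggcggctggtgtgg
Dip2b, chr15:100038557-100038713, plus strand: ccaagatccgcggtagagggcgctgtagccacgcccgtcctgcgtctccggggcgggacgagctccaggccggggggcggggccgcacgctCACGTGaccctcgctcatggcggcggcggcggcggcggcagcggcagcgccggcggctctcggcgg
Rreb1, chr13:37825878-37826075, plus strand: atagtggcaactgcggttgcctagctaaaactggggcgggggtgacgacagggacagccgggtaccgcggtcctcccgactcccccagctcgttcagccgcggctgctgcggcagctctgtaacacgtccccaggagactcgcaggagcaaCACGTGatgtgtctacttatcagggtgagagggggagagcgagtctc
Kcnh2, chr5:24329595-24329792, minus strand: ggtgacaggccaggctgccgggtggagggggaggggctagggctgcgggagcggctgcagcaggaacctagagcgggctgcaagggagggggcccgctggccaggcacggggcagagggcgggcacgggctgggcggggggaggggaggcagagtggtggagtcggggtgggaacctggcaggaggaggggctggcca
Mb, chr15:77022697-77022894, minus strand: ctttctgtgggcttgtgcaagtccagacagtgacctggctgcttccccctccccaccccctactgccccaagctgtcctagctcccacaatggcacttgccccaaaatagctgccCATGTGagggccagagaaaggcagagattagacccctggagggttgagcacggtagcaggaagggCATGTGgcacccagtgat
Pfkm, chr15:98108534-98108605, plus strand: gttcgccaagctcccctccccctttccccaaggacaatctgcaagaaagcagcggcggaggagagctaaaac

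The peak at Vapa, which encodes a membrane protein of the endoplasmic reticulum, had a score of 46 (rank 537 of 2519). The score is the authors' own whole number per peak, with no stated unit, and is used only to rank peaks within a list. Its CACGTG lay 9 bp from the peak centre. The peak at Dip2b scored 38 with its CACGTG 5 bp from the centre, and the one at Rreb1, a zinc-finger factor gene, scored 33 with CACGTG 55 bp away. At Kcnh2, which encodes a potassium channel of cardiac repolarisation, a peak of score 35 (rank 788) lay wholly in the window of an inner start, 102.5 bp from that start and 9.10 kb from the nearest gene end. None of the 4 E-box forms was found in its letters. At Mb, the myoglobin gene, a peak of score 32 lay 68.5 bp from a start and held CATGTG at both marked places. At Pfkm, the muscle form of phosphofructokinase, a peak of score 24 lay 76.5 bp from a start, and the window covered 72 of its bases. The nearest liver peak was 425 kb from the Pfkm peak and the nearest kidney peak 148 kb.

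A canonical E-box was found at few of these inner starts. CACGTG was found in the covered letters of 3 of the 30 peaks (10.0%, 2.11 to 26.5%). The same search gave 10 of 49 liver-only peaks away from boundaries (20.4%) and 15 of 67 such kidney-only peaks (22.4%). The difference from liver was -10.4 percentage points (95% interval -25.2 to 7.58, Fisher's exact test, two-sided, p 0.350 after Benjamini-Hochberg adjustment over 2 tests) and from kidney -12.4 points (-25.5 to 5.31, adjusted p 0.342). Neither passed the threshold of 0.05, and the intervals allow a large difference in either direction. With any of the 4 forms counted, the shares were 30.0% in heart, 51.0% in liver and 53.7% in kidney. Those differences were -21.0 points from liver (Fisher's exact test, adjusted p 0.101) and -23.7 points from kidney (adjusted p 0.0933), again not past the threshold. Among the heart peaks found in all 3 tissues, 111 of the 228 that overlapped a start window held CACGTG (48.7%, 42.0 to 55.4%). These peaks were not held to the 1 kb rule, so their starts can be the outer ends of genes. Scores differed too, with a median of 69 over all heart peaks found in all 3 tissues and 28 over the 30. The covered letters were of unequal length, with a median of 165 in heart, 198 in liver and 161 in kidney. Over whole windows of 300 bases, CACGTG stood in 5 of the 30 (16.7%), 10 of the 49 (20.4%) and 18 of the 67 (26.9%). The differences were then -3.74 points from liver (Fisher's exact test, adjusted p 0.774) and -10.2 points from kidney (adjusted p 0.629). CACGTG stood in 123 of the 228 whole windows (53.9%) and in 7.15% of all 32851 windows. All 3 peaks with CACGTG in the covered letters were among the 13 that scored 30 or more, and none was among the 17 that scored less. Over whole windows, CACGTG also stood at a peak that scored 28, so this split did not hold there. The counts are small and were not tested. The letters were rich in G and C, with a median of 72.2% in the 30 and 71.4% in the 228.

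The other peaks at inner starts belonged to genes of mixed function. After Vapa, the highest were at Fam214a (score 45, centre 8.5 bp from the start), Tdrd7, a Tudor-domain gene (42, 45.5 bp), Kdm2b, a histone demethylase gene (40, 103.5 bp), and the noncoding gene Gm31881 (40, 183.5 bp). Peaks of score 36, 35 and 32 lay at Trp53i13, Rnf126, a ubiquitin ligase gene, and Clic5, which encodes a chloride intracellular channel protein. The Clic5 peak was 53.8 kb from the nearest gene end and 878 kb from the nearest liver peak. The weakest, all of score 16, were at Zfp804a, Chrna4, a neuronal acetylcholine receptor gene, and Chst3. The scores of the 30 thus ran from 16 to 46, and the Vapa peak, the highest of them, had rank 537 among the 2519 heart peaks.

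The scores of heart-only peaks away from boundaries sat at the low end of the heart list. They ran from 16 to 101, with a median of 19 and quartiles of 17 and 24, against a median of 25 over all heart peaks. Of the 305 heart peaks at the lowest score of 16, 261 belonged to this set. Only 4 of the 1140 ranked in the top 10% of the list, 23 scored 50 or more and 151 scored 30 or more. Heart-only peaks at a boundary had a median of 24, heart peaks shared with 1 other tissue 36.5, and those shared with both 69. Because a weak site is more easily missing from another list, these values are partly built into how the set was chosen and are given without a test.

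**Figure D1:**
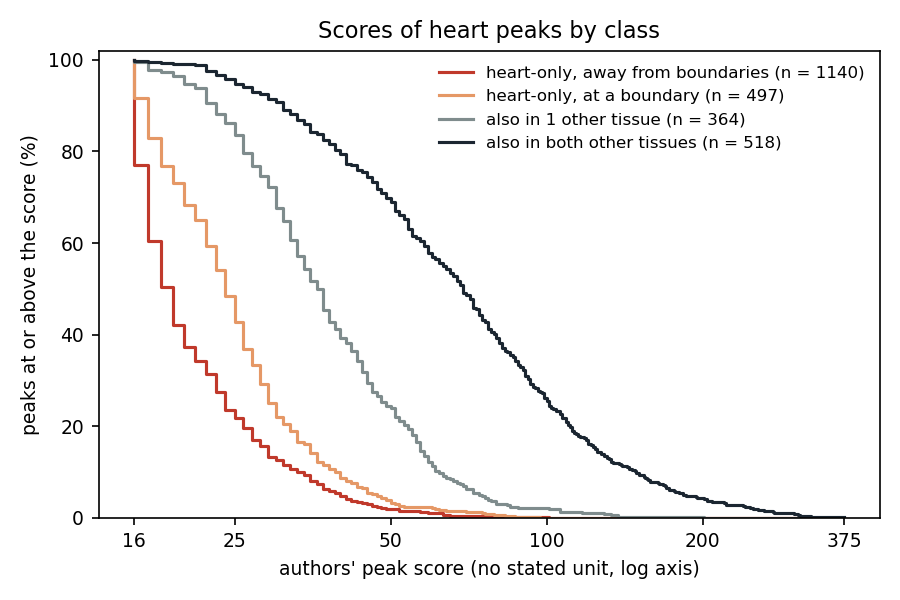
Share of heart peaks at or above each score (y axis, percent) against the authors' peak score (x axis, log scale), for the 1140 heart-only peaks away from boundaries, 497 heart-only peaks at a boundary, 364 peaks shared with 1 other tissue and 518 shared with both. The curve of the 1140 falls first, with a median of 19 against 69 for peaks in all tissues.

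Several of the strongest of these peaks fell inside genes of different kinds. A peak inside Wnk2, a kinase gene whose family regulates ion cotransporters, scored 87 (rank 189, chr13:49134607-49134804). A second peak in the same gene scored 29. Rbm20, whose product directs splicing of the giant sarcomere protein titin, held a peak of score 83 (rank 205, chr19:53801792-53801989). Ntng2, which encodes a membrane-anchored netrin, held one of score 81 (rank 216, chr2:29217916-29218113). The Wnk2 peak of score 87 and the Ntng2 peak had no liver peak within 50 kb of their centres, while the Rbm20 peak had one 14.8 kb away. The second Wnk2 peak had a liver peak 42.4 kb away.

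Below these, scores were close together. Mical2, which encodes an actin-oxidising enzyme, held a peak of score 64 that lay 3.47 kb from the gene end. Peaks of score 63 lay inside Prkce, the epsilon form of protein kinase C, inside Adamts2, a procollagen-processing protease gene, and 1.46 kb from Ccnd2, the cyclin D2 gene. Tmtc1 and Nipsnap2 each held a peak of score 60, Pick1 one of 59 and Mtss1 one of 57. A peak of score 52 lay inside Ptp4a3, a phosphatase gene, another inside Phf19, which encodes a Polycomb-associated protein, and another 10.7 kb from Hivep3. Git2, which encodes a regulator of small ARF GTPases, held one of score 50 and Trak1 one of 49. Gse1 and Pard3, a cell polarity gene, held peaks of score 47, and Appl2 and Trip10, both genes of membrane-binding adaptor proteins, peaks of 46. Of the 15 highest, 4 had no protein-coding gene within 50 kb. These were on chromosome 5 (117001024 to 117001221, score 67), chromosome 7 (73595183 to 73595380, score 65, and 135802587 to 135802784, score 59) and chromosome 14 (31957491 to 31957688, score 65). The first and the second of these lay inside the noncoding genes Gm30028 and Gm30149.

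Each peak was next given to the protein-coding gene closest to it, up to 50 kb away, at distance 0 when its centre was inside the gene. This placed 1017 of the 1140 (89.2%) at 929 genes. A single such peak was found at 851 genes, while 69 genes had 2, 8 had 3 and 1 had 4. Thus 78 of the 929 genes had 2 or more. The counts were 371 of 1685 genes for the 2490 liver-only and 149 of 1125 genes for the 1442 kidney-only peaks away from boundaries. The 9 genes with 3 or 4 peaks were 177 to 802 kb long, against a median of 21.3 kb over protein-coding genes longer than 2 kb. The gene with 4 was Rbm20, with scores of 83, 38, 35 and 20 spread over 131 kb of a 206 kb gene. Rbm20 also had 2 liver peaks, 1 kidney peak and 1 other heart peak. Trak1, which encodes an adaptor for mitochondrial transport along microtubules, had 3 (49, 23 and 21) and neither a liver nor a kidney peak. Nav2 had 3 (41, 17 and 17) beside 7 liver peaks. Ablim1, which encodes an actin-binding LIM protein, had scores of 23, 20 and 18, and Lmo7, another LIM-domain gene, 29, 18 and 16. Med13l, a subunit gene of the Mediator kinase module, had 23, 20 and 18, and Camta1, a calmodulin-binding transcription activator gene, 20, 17 and 17. Beside these, Med13l had 3 kidney peaks and 1 liver peak, and Lmo7 and Camta1 had 1 kidney peak each. Fer and Magi1 had 3 each with no score above 17. Rbm20, Trak1, Nav2 and Lmo7 thus each had a peak above the heart median of 25, and the other 5 genes with 3 peaks did not. Among the genes with 2, the higher and the lower score were 52 and 24 at Ptp4a3, 46 and 27 at Trip10, and 38 and 17 at Casz1, a zinc-finger gene needed in heart development. Sin3a, which encodes a corepressor scaffold, had 37 and 17, and Itgb5, an integrin gene, 35 and 27. Casz1 also had 4 kidney peaks, and Trip10 and Itgb5 had 1 each. At Sin3a a kidney peak lay 677 bp from the peak of score 37.

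**Figure D2:**
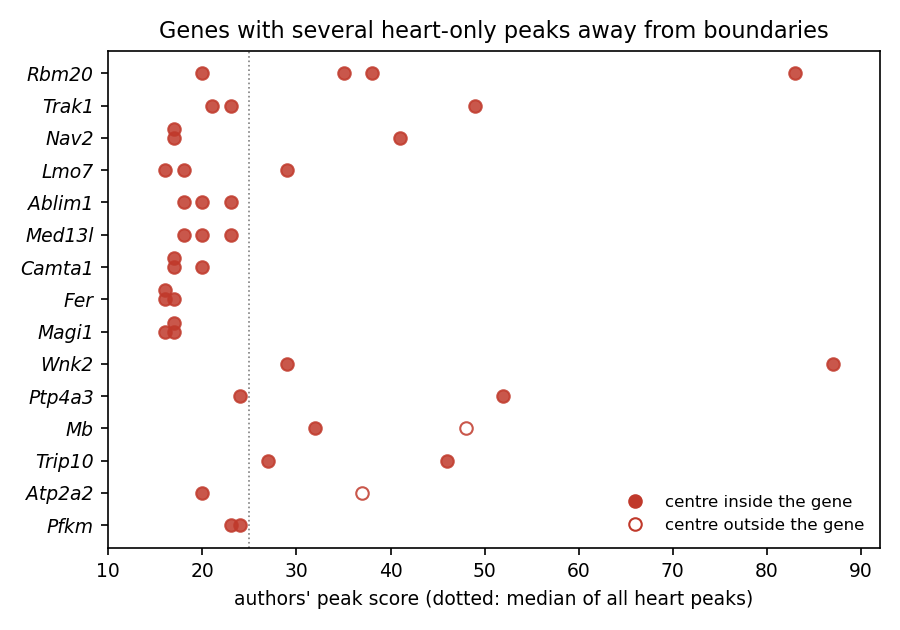
Authors' peak score (x axis) of every heart-only peak away from boundaries at 15 genes: the 9 genes with 3 or 4 such peaks and 6 chosen among those with 2. Filled points have their centre inside the gene, equal scores are offset upward, and the dotted line is the heart median of 25. Rbm20 and Wnk2 hold the highest points, at 83 and 87.

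Of the 929 genes, 536 (57.7%, 54.4 to 60.9%) had no peak of another kind in any list. The same count gave 54.8% of the 1685 genes of liver-only peaks and 51.5% of the 1125 genes of kidney-only peaks. Of all 21887 protein-coding genes, 5569 (25.4%) had a peak of any list. These shares were not tested. Another heart peak was placed at 94 (10.1%), a liver peak at 262 (28.2%), a kidney peak at 251 (27.0%), and a peak found in all 3 tissues at 26 (2.80%). From the centre of a heart-only peak away from boundaries, the median distance to the nearest liver or kidney peak was 79.9 kb, and 501 of the 1140 (43.9%) had none within 100 kb. Within 10 kb of such a peak lay 105 (9.21%) and within 1 kb 14 (1.23%). The closest kidney peaks were centred 203 bp away at Tmcc3 and 213 bp away at Bcor, and the closest liver peaks 223 bp away at Exoc6 and Npm1. Rhof (score 37) and Arid5b (score 19) had both a liver and a kidney peak within 1 kb. At the other limit of the rule, the 3 peaks just inside it were 1001.5 bp (Sh3glb1, score 24), 1010.5 bp (AI597479, score 17) and 1013.5 bp (Dpp8, score 16) from a gene end. Among the heart-only peaks just outside, one at Asic4 was 972.5 bp from a gene end with a score of 17.

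The gene groups were read in order of their role in the heart. The groups were 13 lists of 18 to 40 genes, and every listed gene matched the annotation. As the background for the counts below, 929 of all 21887 protein-coding genes (4.24%) had a heart-only peak away from boundaries. Of the 36 sarcomere genes, 3 had a heart-only peak away from boundaries. These were Myl2, the ventricular regulatory light chain (score 45, inside the gene), Actn2, which anchors thin filaments at the Z-disc (22, inside), and Pdlim5 (21, 26.8 kb away). Of 22 calcium-handling genes, 5 had 7 peaks. Camk2d, the cardiac calmodulin-dependent kinase, held a peak of score 38. Atp2a2, the calcium pump of the sarcoplasmic reticulum, had one of score 37 at 8.68 kb from the gene and one of score 20 inside it. A kidney peak lay 1.26 kb from the Atp2a2 peak of score 37. Jph2, Cacnb2 and Itpr1 held peaks of 18 to 23. Among 29 ion channel and conduction genes, 3 had 4 peaks, including the Kcnh2 peak of score 35 and one of score 29 in Kcnd3, a gene of the transient outward potassium current.

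Of 33 cardiac transcription factor genes, 5 had 1 peak each, among them Mef2d (score 35), Gata4 (26), Tead1 (25, at 18.9 kb from the gene) and Mef2a (19). Of 40 genes of fuel metabolism, 3 had 4 peaks. Pfkm had 2 (24 and 23), Ckm, the muscle creatine kinase gene, 1 (24, at 1.25 kb from the gene) and Pfkl 1 (16, at 5.88 kb). The adrenergic and natriuretic list of 25 genes had 2 peaks, at Gnas and Ednra, both of score 16. The insulin and growth signalling list of 31 had 1, at Tgfb2 (31). Outside the lists, Mb had a peak of score 48 at 1.50 kb from the gene and the peak of score 32 at its inner start described above.

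The 7 lists of heart muscle and signalling genes were about as common near these peaks as near all heart peaks, of which these peaks are a part. They held the nearest gene of 26 of the 1140 (2.28%), and of 57 of all 2519 heart peaks (2.26%, 1.72 to 2.92%). Liver-only and kidney-only peaks away from boundaries gave 2.53% and 1.87%. The 216 genes are 0.987% of protein-coding genes by number and 2.21% by summed length. The sarcomere, calcium and ion channel lists together gave 14 of 1140 (1.23%) here, against 0.992% of all heart peaks, 0.281% of the liver-only peaks (7 of 2490) and 0.416% of the kidney-only peaks (6 of 1442). These lists hold 87 of the 21887 protein-coding genes, and their share of the summed length was not computed. Of their genes with a peak here, Camk2d, Cacnb2, Itpr1 and Kcnd3 are over 200 kb long. In liver-only peaks the fuel, adrenergic and growth lists gave the larger shares, with 0.683%, 0.562% and 0.683%, against 0.351%, 0.175% and 0.0877% in heart. The lists were chosen with earlier results of these data known, so these shares are descriptions without a test.

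**Figure D3:**
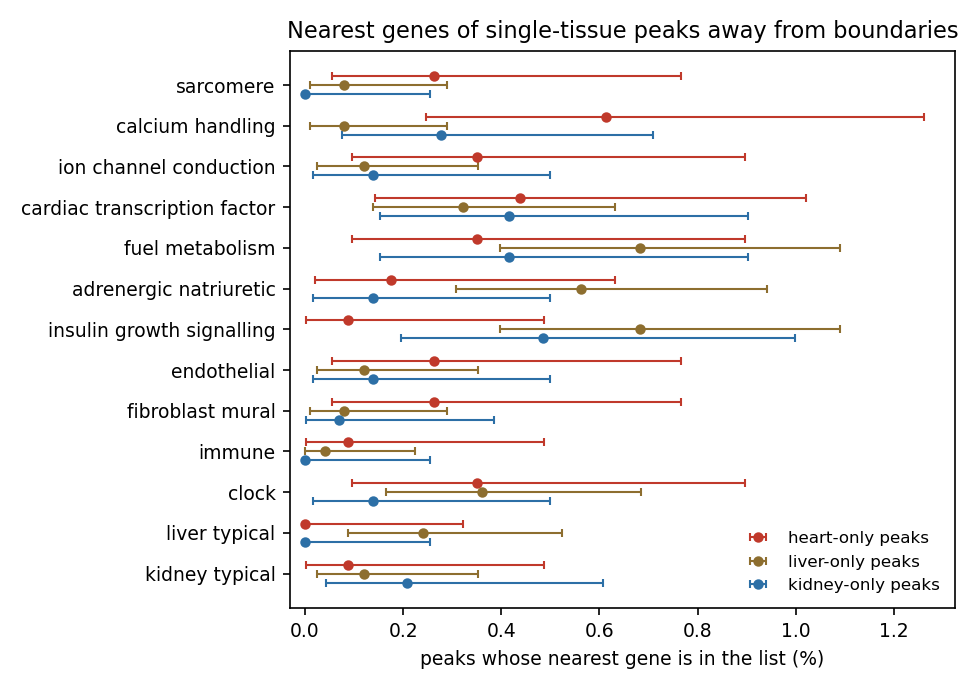
Share of single-tissue peaks away from boundaries whose nearest protein-coding gene is in each of 13 lists (x axis, percent), for 1140 heart-only, 2490 liver-only and 1442 kidney-only peaks; bars are exact 95% intervals of counting error. The heart point is the highest of the 3 for calcium handling, at 0.614%, and the intervals are wide for every list.

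Genes that mark the other cells of the heart were also near a few peaks. Of 26 endothelial genes, Cldn5 (24 and 17) and Kdr (18) had 3 peaks between them, none inside the gene. Those of Cldn5 were 25.6 and 30.3 kb away and that of Kdr 26.5 kb away. Of 22 fibroblast and mural genes, Cspg4 (29), Notch3 (20) and Wt1 (20, at 14.7 kb from the gene) had 1 each. Of 18 immune genes Cx3cr1 had 1 (18). None of the 20 liver-typical genes had one, and of the 20 kidney-typical genes Cdh16, a kidney cadherin gene, had 1 of score 55. The shares of peaks at endothelial genes were 0.263% in heart, 0.120% in liver and 0.139% in kidney, and those at fibroblast and mural genes 0.263%, 0.0803% and 0.0693%. The heart value was thus the highest of the 3 for both of these lists, as it was for the sarcomere, calcium and ion channel lists together. The heart is a mixed tissue, and which cells a peak came from was not tested. Of the 20 clock genes, 3 had 4 peaks of this kind, with scores of 16 to 18. They were at Rora (2), Clock and Arntl, the last 18.9 kb from the gene. The share of peaks at clock genes was 0.351% here, 0.361% in liver-only and 0.139% in kidney-only peaks away from boundaries. Among all heart peaks, which include the shared and boundary peaks, it was 1.55%.

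The position of these peaks was then compared with that of liver-only and kidney-only peaks chosen by the same rule. Heart-only peaks lay inside an annotated gene in 848 of 1140 cases (74.4%, 71.7 to 76.9%). Liver-only peaks did so in 68.4% (66.5 to 70.2%) and kidney-only peaks in 74.1% (71.8 to 76.4%). The heart share was higher than the liver share by 6.03 points (95% interval 2.86 to 9.10, Fisher's exact test, two-sided, adjusted p 0.000468 over 2 tests). The difference from kidney was 0.253 points (-3.16 to 3.63, adjusted p 0.892). With the same number of top-scoring peaks from each list, and overlap called anew among them, 1188 heart peaks met the rule. The difference from liver was then 3.11 points and did not pass the threshold (adjusted p 0.216). These tests take peaks as independent, although 39.0% of the liver-only, 24.1% of the kidney-only and 11.8% of the heart-only peaks had another of their kind within 50 kb. With 1 peak kept per 50 kb (1071 in heart, 1945 in liver and 1257 in kidney), the difference from liver was 5.99 points (adjusted p 0.00107). Exons and introns were not told apart here.

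Heart-only peaks lay in longer genes. Of the 785 inside a protein-coding gene, 231 (29.4%, 26.3 to 32.8%) were in genes over 200 kb, such as Prkce, Rbm20, Pard3 and Nav2. The share was 21.7% in liver-only peaks (327 of 1506) and 21.0% in kidney-only peaks (206 of 980). The differences were 7.71 points (3.95 to 11.6, adjusted p 6.16e-05) and 8.41 points (4.33 to 12.5, adjusted p 6.16e-05, Fisher's exact tests). Genes of this length are 4.52% of protein-coding genes and 40.4% of their summed length. The median host gene was 87.3 kb in heart, 65.2 kb in liver and 69.8 kb in kidney. With each host gene counted once, the heart share exceeded that of liver by 8.57 points (adjusted p 2.58e-05) and that of kidney by 7.61 (adjusted p 0.000332). Each list was also cut to peaks at or above its median score before overlap was called, which changed the heart-only set. The differences were then 3.64 points for liver (adjusted p 0.477) and 2.35 points for kidney (adjusted p 0.522), by Fisher's exact tests.

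The distance to the nearest gene end had a median of 10.2 kb in heart, 9.03 kb in liver and 8.51 kb in kidney. The rule itself used this distance, with the same limit of 1 kb in each list. The shares below therefore describe only peaks beyond that limit, and they move with it. Heart-only peaks within 10 kb of a gene end made up 49.0%, against 53.2% in liver (difference -4.14 points, -7.63 to -0.635, adjusted p 0.0220) and 54.8% in kidney (-5.75 points, -9.61 to -1.87, adjusted p 0.00757), by Fisher's exact tests. Neither passed the threshold when overlap was called anew among peaks at or above each list's median score. The differences there were -0.208 points from liver (adjusted p 0.948) and -5.85 points from kidney (adjusted p 0.216). The call against liver was also lost with a boundary of 500 bp (adjusted p 0.0623) and with 1 peak kept per 50 kb (-3.38 points, adjusted p 0.0799), and both were lost with a boundary of 5000 bp (kidney -2.82 points, adjusted p 0.202). Between 1 and 2 kb from a gene end lay 125 of the 1140 heart-only peaks, between 2 and 5 kb 215 (18.9%), between 5 and 10 kb 219 (19.2%) and between 10 and 50 kb 458 (40.2%). At the far end, 42 heart-only peaks (3.68%) were more than 100 kb from any gene end. The farthest lay 456 kb from one inside Rbfox1, a splicing-factor gene, with a score of 17. The second farthest was on chromosome 3 (42342928 to 42343125, score 17), 365 kb from a gene end and outside genes, and the third lay 346 kb from one inside Nckap5 with a score of 27.

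**Figure D4:**
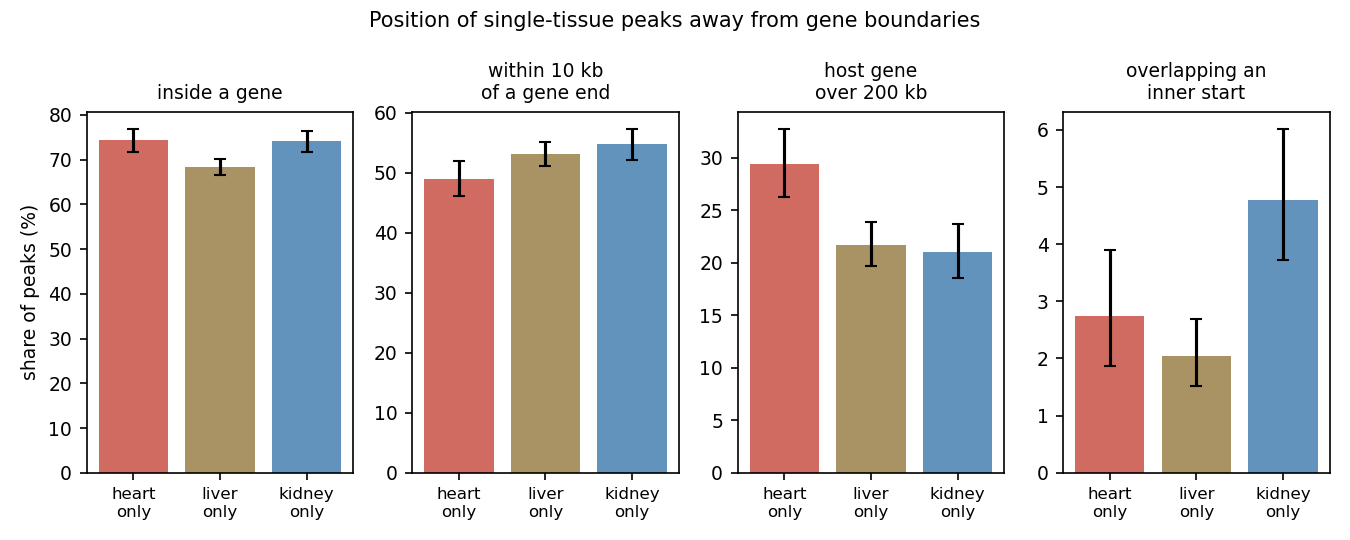
Share (y axis, percent, a separate scale in each panel) of heart-only, liver-only and kidney-only peaks away from boundaries that lay inside a gene, within 10 kb of a gene end, in a host gene over 200 kb (of peaks inside protein-coding genes) or over an inner start window. Bars are exact 95% intervals of counting error; the heart bar for long host genes is at 29.4% against 21.7 and 21.0%.

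Within the set, position went with score. Peaks of score 16 or 17 (450) lay inside a gene in 68.4% of cases, those of 18 to 24 (421) in 77.4% and those of 25 or more (269) in 79.6%. Host genes over 200 kb made up 37.5%, 26.9% and 21.8% in these bands, and the median host gene was 121, 92.3 and 77.8 kb long. Peaks at an inner start were 0.939%, 1.96% and 7.0% of the bands. These are descriptions without a test, with bands set after the scores were seen. For inner starts the comparison between tissues moved with a cut on score as well, a cut that also changed which peaks were heart-only. Peaks at genes without a start window counted as not at a start in each tissue. Over the whole lists the heart share of 2.75% differed from liver (2.04%) by 0.706 points (-0.335 to 1.96, adjusted p 0.219) and from kidney (4.77%) by -2.02 points (-3.51 to -0.505, adjusted p 0.0182), by Fisher's exact tests. With overlap called anew among peaks at or above each list's median score, the heart share was 6.98%. The share was 2.42% in liver (a difference of 4.56 points, adjusted p 0.00104) and 4.59% in kidney (2.38 points, adjusted p 0.197).

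**Figure D5:**
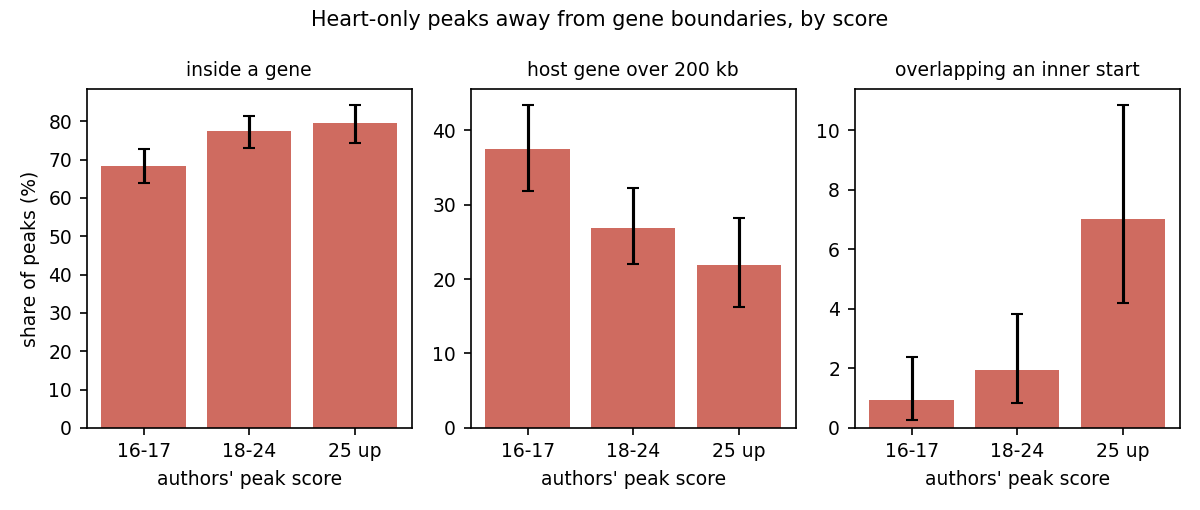
Share (y axis, percent, a separate scale in each panel) of heart-only peaks away from boundaries that lay inside a gene, in a host gene over 200 kb (of those inside protein-coding genes) or over an inner start window, in 3 bands of the authors' score (x axis). Bars are exact 95% intervals; the share at inner starts is 0.939% in the lowest band and 7.0% in the highest.

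Along the host gene the peaks were spread fairly evenly. For 606 peaks whose host gene had a strand in the start table, 22.4% lay in the 20% of the gene nearest its start, and 20.8, 21.6, 16.8 and 18.3% in the following 20% steps. Kidney-only peaks had 27.7% in the first step and 14.6% in the last, and liver-only peaks 23.1% and 17.3%. Heart-only peaks away from boundaries also lay apart from each other. Another such peak was within 50 kb of 135 of the 1140 (11.8%). Among the 1140 highest-scoring liver-only and kidney-only peaks of the same kind the counts were 356 (31.2%) and 280 (24.6%). Peaks near each other are not independent, so this was not tested.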

How the data were processed

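The authors deposited 1 peak list per tissue, made from all ChIP and input replicates of that tissue together, per the labels. Bowtie2, SAMtools, HOMER and the build mm10 are named in the submitters' processing notes, with no role or version. Every peak was 198 bp wide in heart, 242 bp in liver and 188 bp in kidney. The score that the authors deposited beside each peak has no stated meaning or scale.

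Gene ends came from a RefSeq table of GRCm38.p6 (49943 genes on chromosomes, 21887 protein-coding), and starts, strands and letters from a RefSeq table of 32851 start windows of the same assembly. All 1892 overlapping pairs of windows on opposite strands were reverse complements. The window table had no entry for chromosome 18, so its peaks were left out of shares at inner starts. It held windows for 27025 genes. A host gene with a window was found for 606 of the 785 heart-only peaks inside a protein-coding gene. The counts were 1196 of 1506 for liver-only and 776 of 980 for kidney-only peaks. Peaks on other chromosomes at genes without a window were counted as not at a start. Overlap was counted from 1 bp and distances from peak centres. Shares have exact Clopper-Pearson intervals of 95%, and differences have intervals built from Wilson limits. These and the two-sided Fisher's exact tests (SciPy 1.17.1, Python 3.11.15) cover counting error only, since replicates were pooled. Functions were tested on simulated data. The members and lists were chosen with earlier results of these data known. The comparisons of inner starts, E-boxes in start windows and long host genes were added after the data were seen. The planned search of motifs in all peaks was not made, since no genome sequence was used here. Genes named are the 15 highest-scoring peaks, up to 5 genes per list, the 10 genes with most peaks, and the peaks nearest the 1 kb limit or farthest from a gene end. Vapa, Dip2b, Rreb1, Mb, Tmcc3, Exoc6, Npm1, Bcor, Rhof, Arid5b, Fam214a, Tdrd7, Kdm2b, Gm31881, Trp53i13, Rnf126, Clic5, Zfp804a, Chrna4, Chst3, Phf19, Hivep3, Git2, Gse1, Pard3, Appl2, Ptp4a3, Trip10, Casz1, Sin3a and Itgb5 were named after their values were seen. A few peaks that these rules select are not reported here.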

Additional observations from a re-analysis of the deposited data

How the results depend on the processing

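No paired analysis was possible because the authors pooled the replicates of each tissue before calling peaks, and for the same reason no replicate could be left out. The planned share of all peaks with an E-box was not run, since no genome sequence was used here. With only peaks at or above each list's median score, 316 peaks met the rule, 14 were nearest to a gene of the 7 heart lists and 34 had another within 50 kb. There the differences in the share within 10 kb of a gene end were -0.208 points from liver (adjusted p 0.948) and -5.85 points from kidney (adjusted p 0.216). Those in the share of long host genes were 3.64 and 2.35 points, no longer past the threshold, and those in the share at inner starts were 4.56 points from liver, now past it, and 2.38 points from kidney, with the sign turned. With the same number of top-scoring peaks from each list, the gene body difference from liver was 3.11 points (adjusted p 0.216) and the inner start difference from kidney -2.10 points (adjusted p 0.0544). A boundary of 500 bp gave -0.363 points for the gene body difference from kidney and -3.23 points (adjusted p 0.0623) for the share within 10 kb against liver. A boundary of 5000 bp left 17 peaks nearest to the heart lists and 73 near another. It gave -3.71 points from liver and -2.82 points from kidney within 10 kb, and -0.999 points from kidney at inner starts, none past the threshold. Boundaries of protein-coding genes alone gave -0.0750 points for the gene body difference from kidney. Counting every list gene within 50 kb gave 45 peaks at the heart lists. Peaks with another of the set within 10 and 100 kb numbered 41 and 211. Host genes over 500 kb differed from liver by 1.05 points (adjusted p 0.302). The causes of these moves were not tested, other than that stricter settings leave fewer peaks. With 1 peak kept per 50 kb the share within 10 kb differed from liver by -3.38 points (adjusted p 0.0799). This setting, host genes counted once and the alternatives to host gene length were chosen after seeing the data. The gene body difference from liver stayed positive under each alternative run, between 3.11 and 8.38 points.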

Other observations

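The X chromosome held 4 of the 1140 heart-only peaks away from boundaries (0.351%) and 0.913% of all heart peaks. It held 0.281% of the liver-only and 0.416% of the kidney-only peaks of the same kind. The sex of the mice is not given in the labels used here, and no share was tested.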
